A study of Mus musculus with 6 samples.

Results

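The genes described here encode the Golgi enzymes that start, branch, lengthen and cap mucin-type O-glycans and related sugar chains. They are all genes of the array whose annotated symbol starts with Galnt, Gcnt, B3gnt, B3galt, St3gal, St6gal or Fut followed by a digit, 50 of 19505 named genes, each with 1 probe set. RNA labelled as colon crypt RNA of C57BL/6J mice was hybridised to 6 single-colour arrays. The 3 MBELN arrays came from mice given exosome-like nanoparticles of mulberry bark by daily oral gavage over 7 days, and the 3 PBS arrays came from control mice. No allele or agent other than these is named in the labels, and the mice's age and sex are not given there. Nothing in the labels ties each array to a mouse of its own, so a p-value here measures no more than the spread of these 6 samples, part of which may be technical. The deposited values are read as log2, and a difference is MBELN minus PBS.

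O-glycans of mucins are built one sugar at a time in the Golgi. A GALNT enzyme links N-acetylgalactosamine to serine or threonine, further enzymes add galactose and N-acetylglucosamine to form cores and branches, and sialic acid or fucose closes the chains. In the gut these chains make up most of the mass of the secreted mucin glycoproteins and serve bacteria as binding sites and food. Sialyltransferases, fucosyltransferases and some of the extending enzymes also act on N-glycans and glycolipids, among them the gangliosides of brain.

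The arrays did not carry the transcripts of 1 tissue. Of 12 gut epithelial markers, 8, 2 and 10 lay above the dim level on MBELN 1, 2 and 3, against 12 on every PBS array. The dim level is set on each array by the odorant and vomeronasal receptor genes, as the 95th percentile of their probe sets (3.99 to 4.44), and a value below it is called dim. The median of these markers, which include Epcam, Cdh1 and Cdx1, was 7.01, 3.58 and 5.84 on MBELN 1, 2 and 3, against 18.57, 17.98 and 18.58 on PBS 1, 2 and 3. Heart muscle genes, 10 in all, had medians of 18.73 and 18.98 on MBELN 1 and 3 and at most 4.04 on the other arrays, and 10 neuronal genes had a median of 15.84 on MBELN 2 and at most 4.14 elsewhere. Of 5 colon epithelial markers, among them Aqp8 and Car1, 5 lay above the dim level on PBS 2, 1 on PBS 3 and 0 on the others. Paneth cell genes had medians of 18.68 and 19.45 on PBS 1 and 3 and of 3.44 on PBS 2. Gut epithelial markers were thus low or dim on the MBELN arrays, and colon markers were dim on them and on PBS 1, so group names here stand for the labels. Tissue and treatment cannot be told apart in this comparison, and fewer cells of a type cannot be told apart from less RNA per cell.

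Among the 50 transferase genes, 12 were lower and 0 higher on the MBELN arrays at an adjusted p of 0.05. Thus 24% of the transferases were lower, against 3.76% of all 22206 probe sets tested, of which 1.42% were higher. At an unadjusted p under 0.05, 14 were lower and 5 higher, against 10.6% and 7.21% of all probe sets. Their median difference was -0.11, against 0.09 over all probe sets, and 28 differences lay below 0 and 22 above. In 15 genes every MBELN value lay below every PBS value and in 7 every MBELN value lay above, against 13.4% and 11.9% of all probe sets. Dim values were counted too, and for B3galt2, Galnt13 and Galnt18 the separation is partly an order among dim values. Dim on all 6 arrays were 7 transferases, against 28.8% of all probe sets, and 13 were above the dim level on all 6, against 37.4%. Another 7 were above it on no MBELN and on every PBS array, against 1.87% of all probe sets. The 12 lower genes were Galnt3, Galnt4, Galnt5, Galnt6, Galnt7, Galnt10, Galnt12, Gcnt3, B3gnt3, St3gal4, Fut4 and Fut8. The count of lower genes was 4 without MBELN 1, 4 without MBELN 3, 5 without PBS 1 and 3 without PBS 3, where 1.46% to 1.85% of all probe sets were lower. It was 13 without MBELN 2, where 3 genes were higher (7.32% and 9.51% of all probe sets), and 18 without both PBS 2 and MBELN 2, where 11 were higher (15.4% and 15.1%). Without PBS 2 it was 12, with 1 gene higher (5.86% and 1.35%).

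**Figure D1:**
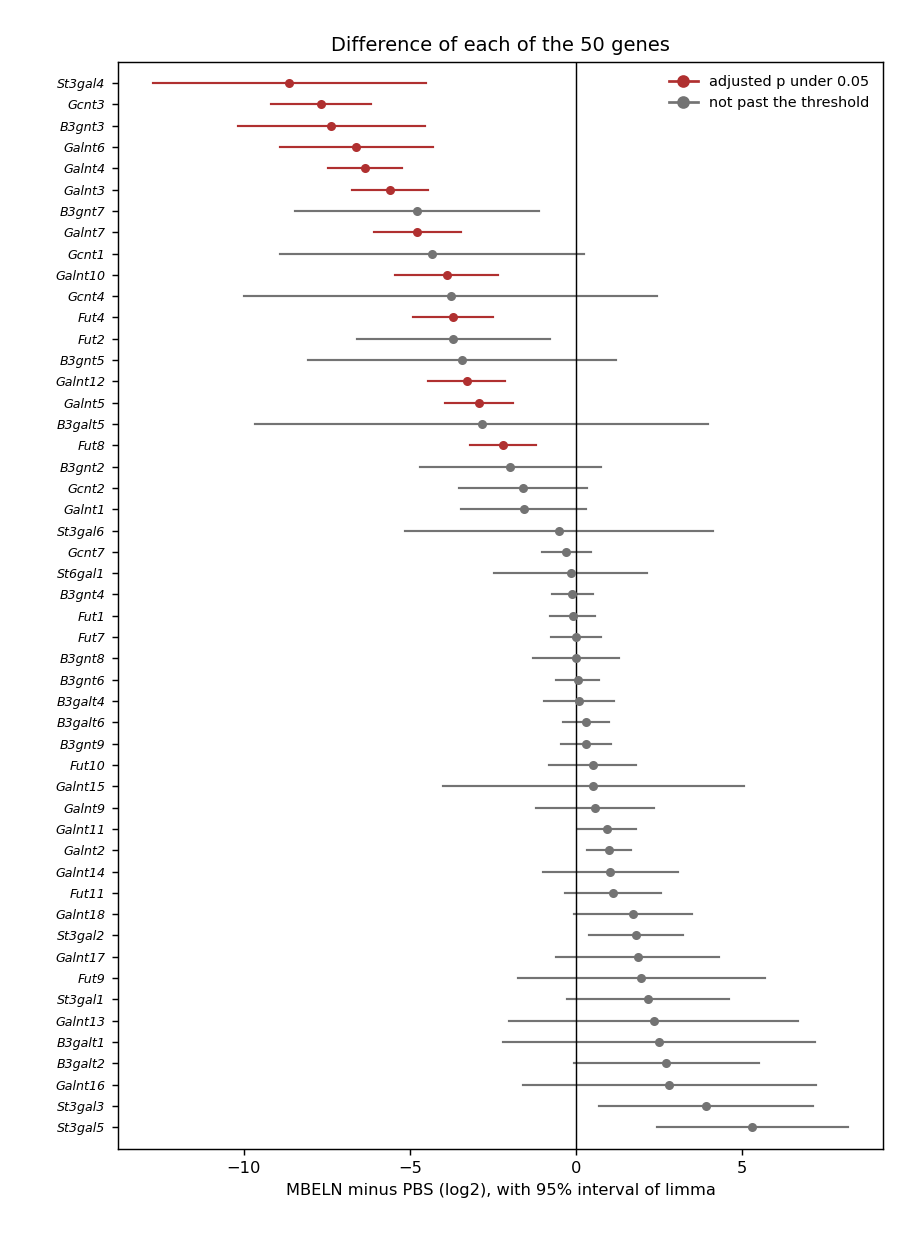
Fitted difference between MBELN and PBS for the 50 genes (log2, horizontal axis) with its 95% interval from limma; red marks the 12 genes past the threshold, and for genes dim in 1 group the point is the fitted value and not a bound. All 12 lie left of 0, from -8.63 for St3gal4 to -2.20 for Fut8. Wide intervals lie on both sides, such as -12.73 to -4.52 for St3gal4, -9.99 to 2.43 for Gcnt4 and 2.43 to 8.19 for St3gal5.

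GALNT enzymes, which add the first sugar, gave 7 of the 12 lower genes, out of 17 Galnt genes measured. That is 41.2% of the Galnt genes, against 3.76% of all probe sets. Galnt4, whose enzyme prefers peptides that already carry some N-acetylgalactosamine, had 4.01, 2.84 and 2.88 in MBELN 1, 2 and 3, against 9.38, 9.31 and 10.09 in PBS 1, 2 and 3. It was dim on every MBELN array and above the dim level on every PBS array, at least 39-fold lower (adjusted p = 0.00229; means 3.24 ± 0.67 in MBELN and 9.59 ± 0.43 in PBS (SD, n = 3 each)). Galnt3, whose enzyme is known for protecting the hormone FGF23 from cleavage, had 2.93, 3.09 and 2.44 in MBELN 1, 2 and 3, against 8.33, 7.72 and 9.21 in PBS 1, 2 and 3, again with no overlap. It was at least 17.2-fold lower (adjusted p = 0.0034; means 2.82 ± 0.33 in MBELN and 8.42 ± 0.75 in PBS (SD, n = 3 each)). These 2 calls held when any 1 array was left out. On the reference GRCm38.p6 the Galnt4 gene overlaps the span of the protein-coding gene Poc1b and Galnt6 that of the noncoding Galnt6os, and the positions of the probes were not used here.

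Galnt7, which encodes another enzyme that acts on partly glycosylated peptides, had 4.37, 5.06 and 5.23 in MBELN 1, 2 and 3, against 10.52, 8.80 and 9.69 in PBS 1, 2 and 3. It fell by 4.78 ± 0.53 (log2, SE, n = 3 each; adjusted p = 0.00851), was above the dim level on 2 of 3 MBELN arrays, and lost its call without PBS 3 (adjusted p = 0.0564). Galnt10, of the same glycopeptide-preferring kind, had 6.86, 5.21 and 5.86 in MBELN 1, 2 and 3, against 10.34, 8.87 and 10.39 in PBS 1, 2 and 3. The groups did not overlap and both were above the dim level, and it fell by 3.89 ± 0.63 (log2, SE, n = 3 each; adjusted p = 0.0277). Galnt6, an initiator of mucin-type chains, had 3.22, 4.65 and 3.16 in MBELN 1, 2 and 3, against 11.01, 8.40 and 11.45 in PBS 1, 2 and 3. It fell by 6.61 ± 0.93 (log2, SE, n = 3 each; adjusted p = 0.0182), with 1 of 3 MBELN arrays above the dim level, and PBS 2 stood below the other PBS arrays. Galnt12, in humans a gene linked to colorectal cancer, had 3.84, 3.39 and 3.13 in MBELN 1, 2 and 3, against 6.81, 5.96 and 7.46 in PBS 1, 2 and 3. It was at least 5.4-fold lower (adjusted p = 0.0187; means 3.45 ± 0.36 in MBELN and 6.74 ± 0.75 in PBS (SD, n = 3 each)). Galnt5, another initiating enzyme, had 2.76, 2.63 and 2.55 in MBELN 1, 2 and 3, against 6.21, 4.84 and 5.68 in PBS 1, 2 and 3. It was at least 2.41-fold lower (adjusted p = 0.0183; means 2.65 ± 0.11 in MBELN and 5.58 ± 0.69 in PBS (SD, n = 3 each)), and its 3 MBELN values were dim. The calls of Galnt6, Galnt5, Galnt12 and Galnt10 each ended without MBELN 1, MBELN 3, PBS 1 or PBS 3. In those fits the adjusted p lay between 0.0817 and 0.0975 for Galnt6, 0.0722 and 0.0996 for Galnt5, 0.0651 and 0.104 for Galnt12, and 0.0542 and 0.134 for Galnt10. Beside these 7 genes, the gut epithelial median was 3.58 to 7.01 on the MBELN arrays and 17.98 to 18.58 on the PBS arrays, and its part in the result was not tested.

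The other 10 Galnt genes did not pass the threshold. Galnt2, the broadly used initiator, had 8.60, 8.06 and 8.39 in MBELN 1, 2 and 3, against 7.29, 7.38 and 7.37 in PBS 1, 2 and 3. All MBELN values lay above all PBS values, with a difference of 1.001 ± 0.27 (log2, SE, n = 3 each; adjusted p = 0.121), and it passed without MBELN 2 (adjusted p = 0.0390). Galnt11, an enzyme that in human and frog cells modifies Notch, had 7.36, 8.31 and 8.07 in MBELN 1, 2 and 3, against 6.74, 7.04 and 7.17 in PBS 1, 2 and 3, without overlap, and a difference of 0.93 ± 0.35 (log2, SE, n = 3 each; adjusted p = 0.25). Galnt1, the other broadly used initiator, had 6.10 to 8.48 in MBELN and 8.25 to 9.58 in PBS, and these ranges overlapped. Galnt13, Galnt16, Galnt17, Galnt18, Galnt14 and Galnt9 all had their highest value on MBELN 2 and are described with the neuronal markers.

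**Figure D2:**
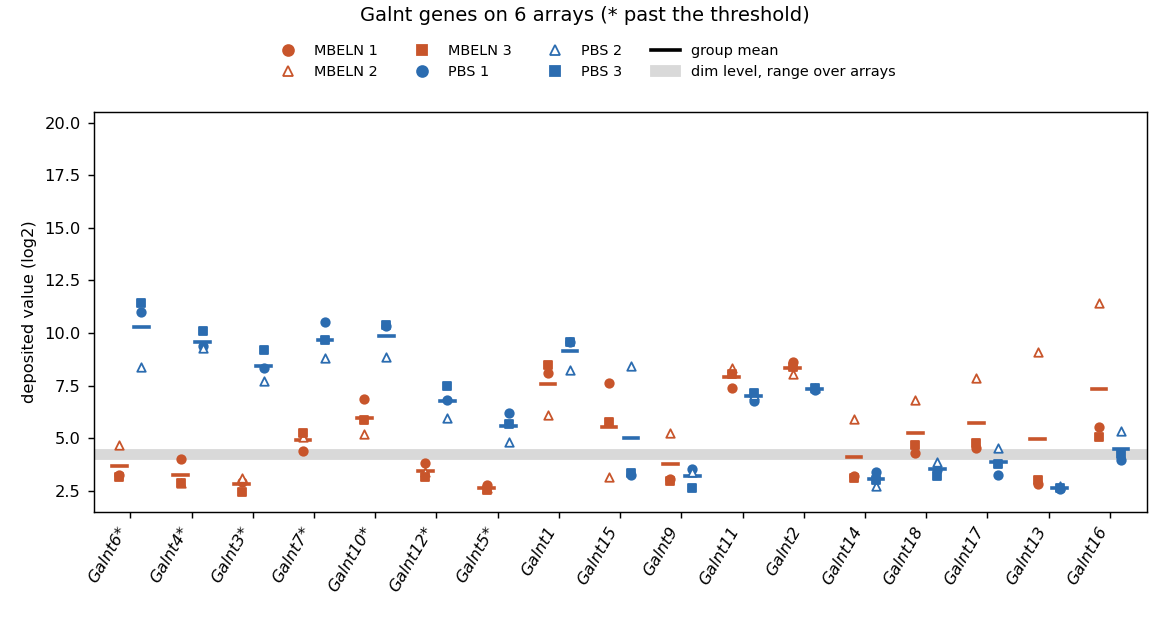
Deposited log2 value of the 17 Galnt genes on each array, MBELN (red, left) and PBS (blue, right), with bars at group means and a grey band for the range of the dim level. Galnt6 to Galnt5 at the left separate the groups with no shared range, while Galnt13 and Galnt16 at the right are high on MBELN 2 alone, at 9.09 and 11.41.

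The start regions of the lower genes are shown to set their base composition beside their common direction. RefSeq start regions were found for 37 of the 50 genes and for 9 of the 12 lower ones, and the 250 bases before each start were read on the gene strand (RefSeq, GRCm38.p6). The 3 windows printed here were taken for the most CG-rich window, a CG-poor window, and the one window with a match to the HNF4 motif, and capitals mark CG dinucleotides.
Galnt3, chr2:66124794-66125043, minus strand: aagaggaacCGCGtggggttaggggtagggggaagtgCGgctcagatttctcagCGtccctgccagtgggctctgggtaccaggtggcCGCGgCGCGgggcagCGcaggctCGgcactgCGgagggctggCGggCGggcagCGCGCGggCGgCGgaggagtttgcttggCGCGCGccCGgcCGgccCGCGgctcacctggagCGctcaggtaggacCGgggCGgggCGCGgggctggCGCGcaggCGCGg
Galnt5, chr2:57997905-57998154, plus strand: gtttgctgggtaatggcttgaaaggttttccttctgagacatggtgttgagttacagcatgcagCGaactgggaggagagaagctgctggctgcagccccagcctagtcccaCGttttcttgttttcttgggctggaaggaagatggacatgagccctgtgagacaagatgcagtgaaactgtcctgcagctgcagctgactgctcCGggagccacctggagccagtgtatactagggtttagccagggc
B3gnt3, chr8:71701801-71702050, minus strand: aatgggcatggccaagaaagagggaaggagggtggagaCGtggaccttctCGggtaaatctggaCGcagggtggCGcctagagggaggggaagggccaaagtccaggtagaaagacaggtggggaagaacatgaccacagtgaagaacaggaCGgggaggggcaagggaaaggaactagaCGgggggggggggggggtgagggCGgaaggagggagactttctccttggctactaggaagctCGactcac
The Galnt3 window had 34 CG dinucleotides and 76.8% G and C, the Galnt5 window 3 and 54%, and the B3gnt3 window 8 and 60%. Over the 13 windows of the lower genes the median was 16 CG dinucleotides and 64.4% G and C, against 12 and 59.2% over the 57 windows of all 37 transferase genes and 6 and 52.4% over all 32851 windows. Of the 13 windows, 4 belong to Fut8, and the lower genes included CG-rich and CG-poor starts. Motifs of gut transcription factors were searched on both strands. CAAAGTC, for HNF4, was in 1 of the 13 windows, 154 to 148 bases before the B3gnt3 start, against 3.84% of all windows. AGATAA, for GATA factors, was in 1 window of Fut8, against 9.99% of all windows. TTTATNG, for CDX factors, was in 1 window of Fut8 too, against 9.81%. No matches overlapped. A match of letters is no evidence of binding.

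The GCNT genes encode branching enzymes, and 1 of 5 was lower (20%, against 3.76% of all probe sets). Gcnt3, which encodes the mucin-type enzyme that forms core 2 and core 4 branches, had 3.89, 4.08 and 3.52 in MBELN 1, 2 and 3, against 12.18, 10.21 and 12.11 in PBS 1, 2 and 3. All MBELN values were dim, and it was at least 146-fold lower (adjusted p = 0.003; means 3.83 ± 0.28 in MBELN and 11.50 ± 1.12 in PBS (SD, n = 3 each)), a call that held without any 1 array. The bound was 116-fold without PBS 1, 119-fold without PBS 3 and 229-fold without PBS 2. Gcnt1, the core 2 enzyme of leukocytes and other cells, had 6.76, 4.11 and 5.62 in MBELN 1, 2 and 3, against 8.86, 13.73 and 6.89 in PBS 1, 2 and 3. No values overlapped, but PBS 2 stood far above PBS 1 and 3, and the difference of -4.33 ± 1.84 (log2, SE, n = 3 each; adjusted p = 0.303) did not pass. Gcnt2, which makes the branched I antigen, had 7.31, 9.29 and 6.60 in MBELN 1, 2 and 3, against 9.25, 8.78 and 9.99 in PBS 1, 2 and 3, with MBELN 2 inside the PBS range. Its difference was -1.61 ± 0.78 (log2, SE, n = 3 each; adjusted p = 0.36), and it passed without MBELN 2 (adjusted p = 0.0236). Gcnt4, another core 2 enzyme, was above the dim level on MBELN 2 at 7.35, against 11.47 and 11.06 on PBS 1 and 3, and dim on the other arrays. Gcnt7 was dim on all 6 arrays.

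The B3GNT enzymes lengthen chains with N-acetylglucosamine. B3gnt3, which extends core 1, had 7.16, 3.37 and 6.80 in MBELN 1, 2 and 3, against 13.66, 13.66 and 12.10 in PBS 1, 2 and 3. It fell by 7.37 ± 1.13 (log2, SE, n = 3 each; adjusted p = 0.0238), and of the MBELN arrays only MBELN 2 was dim. This call ended without any 1 array other than MBELN 2 (adjusted p between 0.0575 and 0.121). B3gnt7, which acts on keratan sulfate chains, had 3.67, 4.62 and 4.13 in MBELN 1, 2 and 3, against 7.43, 12.35 and 6.99 in PBS 1, 2 and 3. The groups did not overlap and PBS 2 stood apart, with a difference of -4.79 ± 1.48 (log2, SE, n = 3 each; adjusted p = 0.166) and a call without PBS 2 (adjusted p = 0.0222). B3gnt5, which starts lacto-series glycolipids, had 3.85, 3.70 and 4.96 in MBELN 1, 2 and 3, against 6.14, 11.87 and 4.79 in PBS 1, 2 and 3, and the difference of -3.43 ± 1.87 (log2, SE, n = 3 each; adjusted p = 0.422) did not pass. B3gnt2, the main enzyme of poly-N-acetyllactosamine, had 6.92 to 8.07 in MBELN and 7.94 to 11.86 in PBS, the highest on PBS 2. B3gnt4, B3gnt6, B3gnt8 and B3gnt9 were dim on all arrays. B3gnt6 encodes the enzyme that makes core 3 O-glycans, a core known from colon mucin, and read 2.76 to 3.08 in MBELN and 2.81 to 3.10 in PBS.

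Of the 5 B3GALT genes, 0 passed by limma, adjusted or at an unadjusted p under 0.05. Of all probe sets, 5.18% passed adjusted, and 10.6% were lower and 7.21% higher unadjusted. B3galt2, which adds galactose in type 1 chains, had 4.21, 8.40 and 5.66 in MBELN 1, 2 and 3, against 2.64, 4.17 and 3.31 in PBS 1, 2 and 3. All PBS values and that of MBELN 1 were dim, so these have no order, and 2 of 3 MBELN arrays were above the dim level. Set against the dim level of the PBS arrays, its MBELN mean was 3.79-fold higher (adjusted p = 0.291; means 6.09 ± 2.13 in MBELN and 3.37 ± 0.77 in PBS (SD, n = 3 each)). This value was 1.70-fold without MBELN 2 and 7.26-fold without MBELN 1. The MBELN mean includes the dim value of MBELN 1, so 3.79-fold is no strict bound. The 95% interval of the limma difference was -0.07 to 5.50 (log2). B3galt1, of the same activity, had 4.12, 10.53 and 3.80 in MBELN 1, 2 and 3, against 3.52, 4.45 and 3.01 in PBS 1, 2 and 3, high on MBELN 2 alone, and a difference of 2.49 ± 1.89 (log2, SE, n = 3 each; adjusted p = 0.561). Within the arrays of higher hybridisation control signal, MBELN 1, MBELN 3 and PBS 2, the difference was -0.49. That fit leaves out MBELN 2, and both of its MBELN values were dim. B3galt5, the main type 1 chain enzyme of gut epithelium, had 2.71, 6.88 and 3.04 in MBELN 1, 2 and 3, against 4.18, 12.97 and 3.99 in PBS 1, 2 and 3. It was high on PBS 2 and next on MBELN 2. B3galt4, the synthase of GM1 gangliosides, read 3.54 to 4.73 in MBELN and 3.54 to 4.33 in PBS, and B3galt6, which builds the linker of proteoglycan chains, read 4.47 to 5.06 in MBELN and 4.33 to 4.61 in PBS.

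Of the 7 sialyltransferase genes, 1 was lower and 0 were higher past the threshold, against 3.76% and 1.42% of all probe sets. By limma 3 were higher at an unadjusted p under 0.05, against 7.21% of all probe sets. St3gal4, which caps N-acetyllactosamine with sialic acid, had 9.31, 5.97 and 8.88 in MBELN 1, 2 and 3, against 18.25, 13.40 and 18.39 in PBS 1, 2 and 3. It fell by 8.63 ± 1.65 (log2, SE, n = 3 each; adjusted p = 0.0467), the largest fitted fall among the 50 genes, with wide spread in both groups. Its call ended without MBELN 1, MBELN 3, PBS 1 or PBS 3 (adjusted p between 0.123 and 0.189) and with quantile normalization (0.0533). St3gal5, the GM3 synthase that opens the ganglioside pathway, had 8.37, 11.16 and 6.56 in MBELN 1, 2 and 3, against 3.01, 3.69 and 3.45 in PBS 1, 2 and 3. It was above the dim level on all MBELN arrays and dim on all PBS arrays, at least 23-fold higher, with means of 8.69 ± 2.32 in MBELN and 3.38 ± 0.34 in PBS (SD, n = 3 each). This bound was 9.80-fold without MBELN 2 and 48.2-fold without MBELN 3. It had adjusted p = 0.0687 over all arrays and 0.00864 without MBELN 2. It was the single gene of the 50 that lay above the dim level on every MBELN and no PBS array, against 0.703% of all probe sets. St3gal2, which sialylates core 1 and gangliosides, had 5.58, 6.18 and 5.15 in MBELN 1, 2 and 3, against 3.63, 4.85 and 3.005 in PBS 1, 2 and 3, without overlap, and a difference of 1.81 ± 0.57 (log2, SE, n = 3 each; adjusted p = 0.173). St3gal3, which acts on type 1 and type 2 chains, had 12.66, 11.17 and 13.22 in MBELN 1, 2 and 3, against 6.90, 11.19 and 7.19 in PBS 1, 2 and 3. PBS 2 lay just above MBELN 2, and the difference of 3.92 ± 1.30 (log2, SE, n = 3 each; adjusted p = 0.191) did not pass. St3gal6, an enzyme of type 2 chains, had 11.41, 8.81 and 10.21 in MBELN 1, 2 and 3, against 8.70, 14.79 and 8.46 in PBS 1, 2 and 3, highest on PBS 2. St3gal1, which sialylates core 1, read 5.17 to 8.49 in MBELN and 3.79 to 5.51 in PBS. St6gal1, the N-glycan enzyme, read 5.35 to 6.48 in MBELN and 4.58 to 8.04 in PBS.

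Of the 8 fucosyltransferase genes, Fut4 and Fut8 fell (25%, against 3.76% of all probe sets). Fut4, which makes the Lewis X structure, had 2.73, 2.47 and 3.18 in MBELN 1, 2 and 3, against 5.87, 7.39 and 6.24 in PBS 1, 2 and 3. It was dim on all MBELN arrays and at least 4.56-fold lower (adjusted p = 0.0142; means 2.79 ± 0.36 in MBELN and 6.50 ± 0.79 in PBS (SD, n = 3 each)), and it did not pass without MBELN 1, MBELN 3 or PBS 3 (adjusted p between 0.0573 and 0.0716). Fut8, the core fucosyltransferase of N-glycans, had 8.48, 9.08 and 8.28 in MBELN 1, 2 and 3, against 10.60, 10.44 and 11.39 in PBS 1, 2 and 3. Every array was above the dim level and the groups did not overlap, and it fell by 2.20 ± 0.39 (log2, SE, n = 3 each; adjusted p = 0.0387). Its call ended without any 1 array other than MBELN 2 (adjusted p between 0.0508 and 0.144) and with a trended robust variance (0.118). Fut2, the secretor enzyme that puts fucose on terminal galactose in gut mucus, had 3.16, 2.99 and 3.15 in MBELN 1, 2 and 3, against 5.31, 9.51 and 5.56 in PBS 1, 2 and 3. It was dim on every MBELN array, at least 5.6-fold lower, with means of 3.10 ± 0.09 in MBELN and 6.79 ± 2.36 in PBS (SD, n = 3 each). This bound fell to 2.18-fold without PBS 2 and was 9.36-fold without PBS 1 and 8.59-fold without PBS 3. It had adjusted p = 0.175 over all arrays and 0.0168 without PBS 2, the array that stood apart. Fut11, a less studied member, had 7.53, 8.29 and 7.01 in MBELN 1, 2 and 3, against 5.47, 7.16 and 6.83 in PBS 1, 2 and 3, and a difference of 1.12 ± 0.58 (log2, SE, n = 3 each; adjusted p = 0.396). Fut1, the relative of Fut2, and Fut7, the enzyme of leukocyte sialyl Lewis X, were dim on all arrays. Fut10 was above the dim level on MBELN 1 and 2 only, at 5.50 and 4.75. Beside these families, 12 of 12 gut epithelial markers fell in the same fit, and their part in the falls was not tested.

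**Figure D3:**
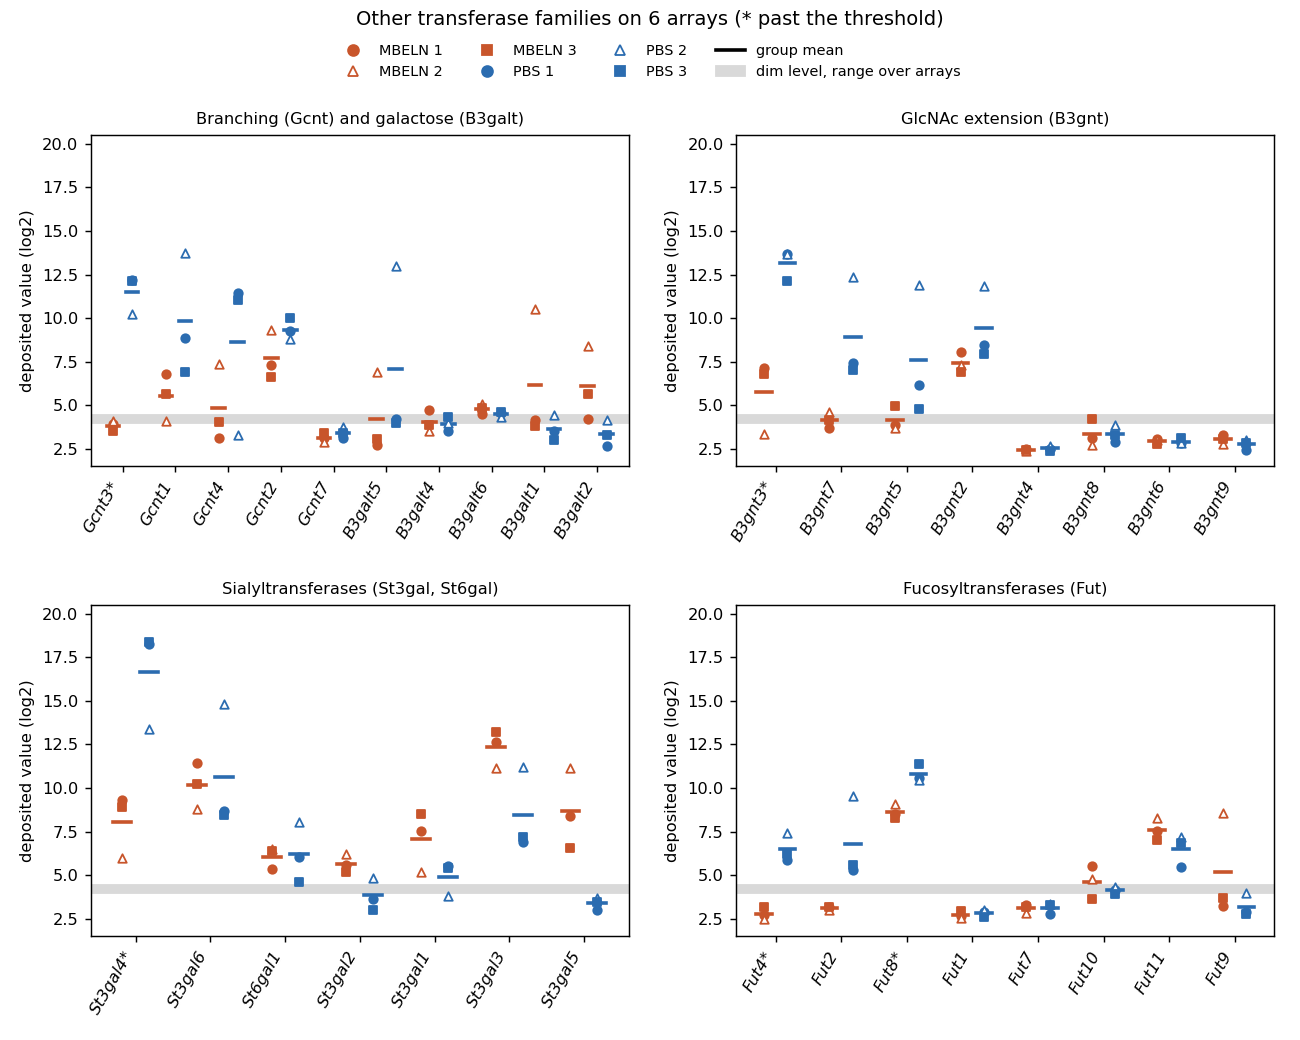
Deposited log2 value of the other 33 genes on each array, MBELN (red, left) and PBS (blue, right), with bars at group means and a grey band for the range of the dim level. Open triangles mark the MBELN 2 and PBS 2 arrays, which lie far from the others of their group for B3galt1 and Fut9 (MBELN 2) and for B3galt5, B3gnt5, B3gnt7 and Gcnt1 (PBS 2).

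Arrays of 1 group differed from each other in the transferases they carried. The 3 MBELN values spanned at least 4 log2 units in 9 of the 50 genes, against 13% of all probe sets, and the 3 PBS values in 10, against 3.4%. Of the 16 genes with either span, 15 did not pass the threshold. A wide span itself raises the variance in the fit, so this count is no finding about the transferases. On PBS 2 alone, 4 genes stood at least 4 above every other array, namely B3galt5, B3gnt5, B3gnt7 and Gcnt1, and 0.518% of all probe sets did so. The gaps to the next array were 6.09 for B3galt5, 5.73 for B3gnt5, 4.92 for B3gnt7 and 4.87 for Gcnt1. PBS 2 was the array with colon epithelial markers, whose median was 13.62 there and at most 3.13 elsewhere. St3gal6, Fut2 and B3gnt2 had their highest value on PBS 2 too, 3.38, 3.95 and 3.43 above the next array.

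On MBELN 2 alone, B3galt1, Galnt13, Galnt16 and Fut9 stood at least 4 above every other array, as did 4.64% of all probe sets. Galnt13, known as the GALNT of neurons, had 2.81, 9.09 and 3.001 in MBELN 1, 2 and 3, against 2.56, 2.70 and 2.62 in PBS 1, 2 and 3. Fut9, which makes Lewis X in brain, had 3.20, 8.59 and 3.70 in MBELN 1, 2 and 3, against 2.85, 3.96 and 2.76 in PBS 1, 2 and 3. Galnt16 had 5.51, 11.41 and 5.04 in MBELN 1, 2 and 3, against 3.94, 5.34 and 4.22 in PBS 1, 2 and 3. MBELN 1 and 3 were dim for Galnt13 and Fut9. For Galnt16 they were above the dim level, and without PBS 2 and MBELN 2 its difference was 1.19 (adjusted p = 0.0389), against 2.81 over all arrays (adjusted p = 0.49). Galnt17 and Galnt18 were less far apart, at 7.86 and 6.79 on MBELN 2 and at most 4.75 and 4.66 elsewhere, and Galnt14 and Galnt9 read 5.92 and 5.26 there and were dim on all other arrays. MBELN 2 was the array with neuronal markers, and 7 of 7 glial markers lay above the dim level there, against 2 or 3 on the others.

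Some genes were high on both PBS 1 and PBS 3. Gcnt4 had 3.11, 7.35 and 4.01 in MBELN 1, 2 and 3, against 11.47, 3.27 and 11.06 in PBS 1, 2 and 3, so PBS 2 was dim beside values above 11 on the other PBS arrays. St3gal4 was lower on PBS 2 than on PBS 1 and PBS 3 too, at 13.40 against 18.25 and 18.39. The Paneth cell list had medians of 5.18, 3.51 and 4.43 on MBELN 1, 2 and 3, against 18.68, 3.44 and 19.45 on PBS 1, 2 and 3. The small intestinal enterocyte list had medians of 9.98, 3.43 and 8.73 on MBELN 1, 2 and 3, against 18.02, 5.38 and 17.60 on PBS 1, 2 and 3. Of its 8 genes, 8 lay above the dim level on MBELN 1 and on MBELN 3, so this list was not particular to PBS 1 and 3. Galnt15 had another order, with 7.62, 3.14 and 5.79 in MBELN 1, 2 and 3, against 3.23, 8.42 and 3.33 in PBS 1, 2 and 3. It was above the dim level on MBELN 1, MBELN 3 and PBS 2, and MBELN 1 and 3 were the arrays with heart muscle markers. St3gal3 and St3gal1 had their highest values on MBELN 1 and 3, whereas Galnt15 was highest on PBS 2. The part of tissue in any of these patterns was not tested.

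**Figure D4:**
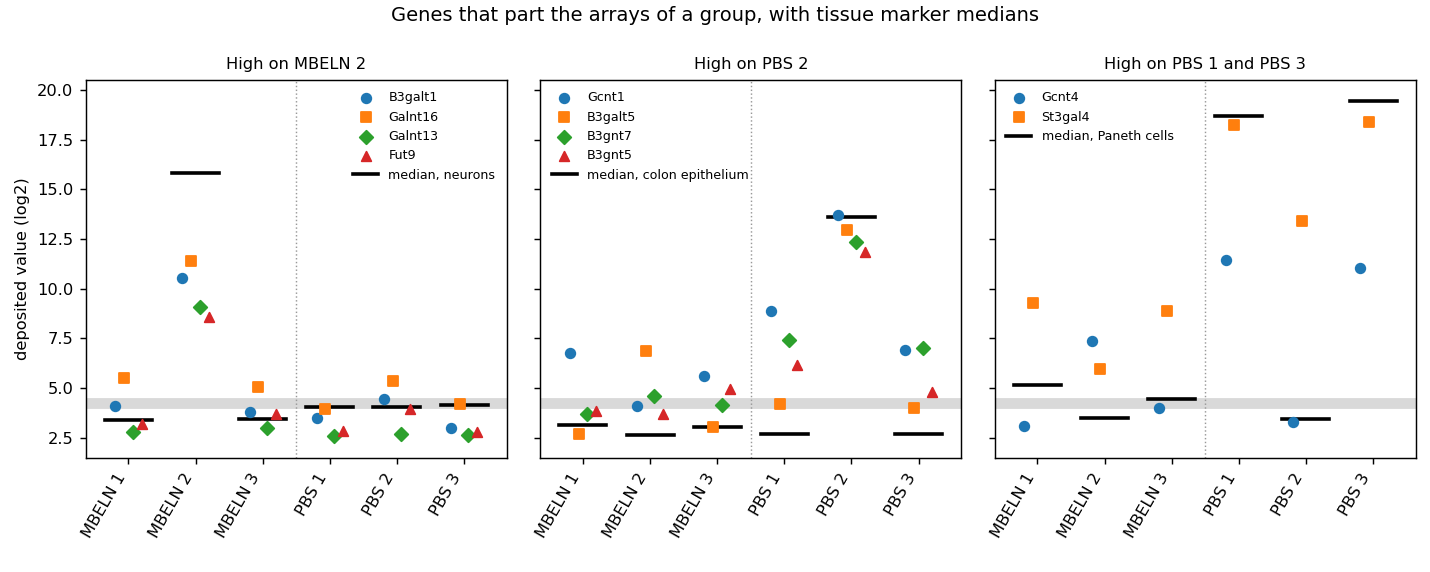
Deposited log2 values on each array for genes high on MBELN 2, on PBS 2, and on PBS 1 and 3, with black bars for the median of the neuronal, colon epithelial and Paneth cell marker lists; MBELN arrays are left of the dotted line. The genes were picked for being high on those arrays, and the marker lists were written with earlier results known. That points and bars are highest on the same arrays is therefore no test. St3gal4 read 13.40 on PBS 2, where the Paneth cell bar is at 3.44. The grey band is the dim level.

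Enzymes that act beside these transferases, on the same or on other sugar chains, were read from a list of partners. Of 38 measured, 1 was lower (2.63%, against 3.76% of all probe sets) and 0 higher. At an unadjusted p under 0.05, 9 were lower and 1 higher, against 10.6% and 7.21% of all probe sets. The lower gene was C1galt1c1, the chaperone needed by the core 1 galactosyltransferase, which had 6.66, 5.33 and 6.48 in MBELN 1, 2 and 3, against 8.66, 9.81 and 9.65 in PBS 1, 2 and 3. It fell by 3.21 ± 0.52 (log2, SE, n = 3 each; adjusted p = 0.0277), and this call ended without any 1 array other than MBELN 2 (adjusted p between 0.0607 and 0.135). C1galt1, that galactosyltransferase itself, had 7.71, 5.87 and 7.50 in MBELN 1, 2 and 3, against 10.53, 13.13 and 10.31 in PBS 1, 2 and 3, with no overlap and a difference of -4.30 ± 0.94 (log2, SE, n = 3 each; adjusted p = 0.068). Gal3st1, a sulfotransferase of glycolipids, had a difference of -2.88 ± 0.61 (log2, SE, n = 3 each; adjusted p = 0.0622), with 1 of 3 MBELN arrays above the dim level. B4galnt3, which adds N-acetylgalactosamine to N-acetylglucosamine, was dim on all MBELN arrays and at least 7.06-fold lower (adjusted p = 0.0847; means 3.30 ± 0.64 in MBELN and 7.13 ± 1.68 in PBS (SD, n = 3 each)), a bound of 3.61-fold without PBS 2. Without 1 array these 3 passed, C1galt1 and Gal3st1 without MBELN 2 (0.0475 and 0.00366) and B4galnt3 without PBS 2 (0.0379). The count was 0 without MBELN 1, MBELN 3, PBS 1 or PBS 3, where 1.7% to 2.26% of all probe sets passed in either direction. Without MBELN 2, 4 were lower and 1 higher, or 13.2%, against 16.8% of all probe sets. Without PBS 2, 4 were lower, or 10.5%, against 5.86%. Without both PBS 2 and MBELN 2, 15 were lower and 3 higher, or 47.4%, against 30.5% of all probe sets. The median difference of the partner list was -0.16.

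Genes that supply activated sugars were read from a list of their own. Of 20 measured genes for the synthesis, activation and Golgi import of sugar donors, 10 were lower and 0 higher, with a median difference of -2.58, against 3.76% lower and a median of 0.09 over all probe sets. Among 6 genes for UDP-N-acetylglucosamine, 5 fell, as did 3 of 6 for GDP-fucose, 1 of 5 for CMP-sialic acid and 1 of the other 3. Uap1, which makes UDP-N-acetylglucosamine, had 8.51, 8.37 and 8.73 in MBELN 1, 2 and 3, against 12.33, 11.71 and 11.52 in PBS 1, 2 and 3. It fell by 3.32 ± 0.32 (log2, SE, n = 3 each; adjusted p = 0.0057). Slc35c1, the Golgi carrier of GDP-fucose, had 3.94, 5.14 and 4.47 in MBELN 1, 2 and 3, against 8.13, 8.24 and 8.44 in PBS 1, 2 and 3 and fell by 3.75 ± 0.38 (log2, SE, n = 3 each; adjusted p = 0.00662). Gfpt1, the entry enzyme of the hexosamine pathway, had 5.48, 8.03 and 6.01 in MBELN 1, 2 and 3, against 12.91, 13.90 and 13.89 in PBS 1, 2 and 3. It fell by 7.06 ± 0.75 (log2, SE, n = 3 each; adjusted p = 0.0076), and without PBS 3 it no longer passed (0.0533). Slc35a3, a Golgi carrier of UDP-N-acetylglucosamine, had 6.01, 5.70 and 7.30 in MBELN 1, 2 and 3, against 11.001, 11.44 and 10.75 in PBS 1, 2 and 3 and fell by 4.73 ± 0.50 (log2, SE, n = 3 each; adjusted p = 0.00767), and its call ended without PBS 1 (0.0532). The count was 5 without MBELN 1 or MBELN 3, 4 without PBS 1, and 3 without PBS 3. In those fits 1.7% to 2.26% of all probe sets passed in either direction. Without both PBS 2 and MBELN 2, 14 were lower and 2 higher, or 80%, against 30.5% of all probe sets.

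**Figure D5:**
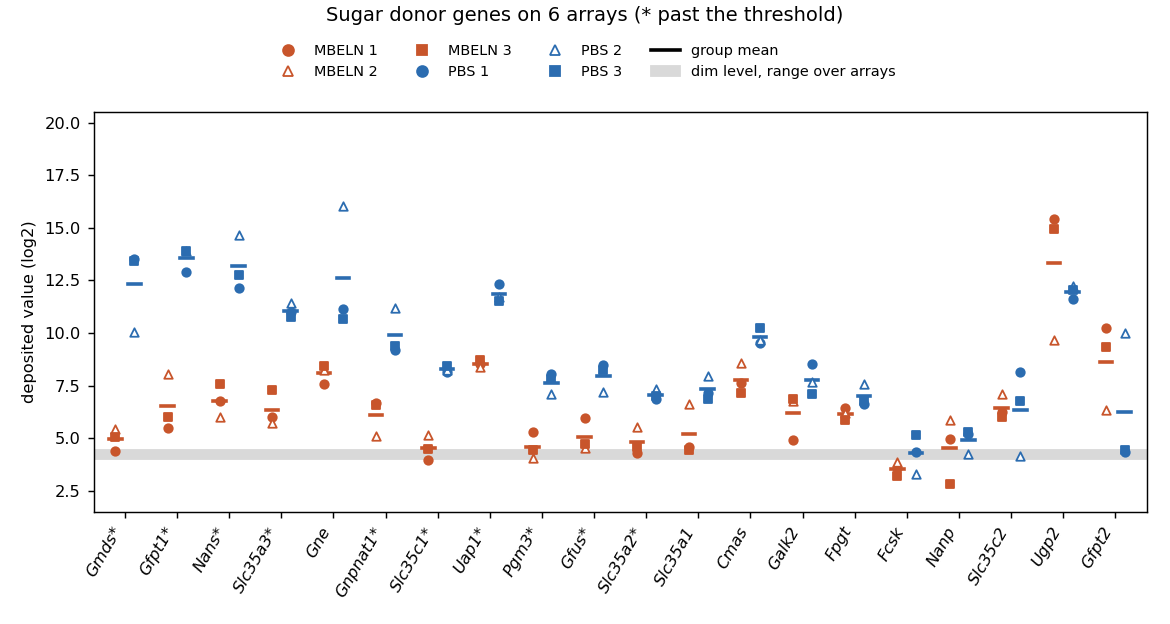
Deposited log2 value of the 20 sugar donor genes on each array, MBELN (red, left) and PBS (blue, right), with bars at group means and a grey band for the range of the dim level. The 10 genes with an asterisk have their MBELN values below their PBS values, and Gfpt2 and Ugp2 at the right have higher MBELN means with wide spread.

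The carriers of the chains were the mucins, of which 9 of 15 listed symbols were matched. Of the 9, 2 were lower and 0 higher past the threshold. The lower share was 22.2%, against 3.76% of all probe sets. Muc2, the main gel-forming mucin of the gut, had 7.95, 4.17 and 6.85 in MBELN 1, 2 and 3, against 19.31, 18.18 and 19.31 in PBS 1, 2 and 3, and fell by 12.61 ± 1.02 (log2, SE, n = 3 each; adjusted p = 0.00322). Muc13, a membrane mucin of gut epithelium, had 9.26, 2.80 and 8.50 in MBELN 1, 2 and 3, against 19.75, 19.74 and 19.69 in PBS 1, 2 and 3, with PBS values near the top of the scale of 19.9. It fell by 12.87 ± 1.73 (log2, SE, n = 3 each; adjusted p = 0.0159), and it did not pass without MBELN 3, PBS 1 or PBS 3 (adjusted p between 0.0573 and 0.0880). The other 7 did not pass, and 5 of the 9 genes were dim on all arrays. Muc2 is also 1 of the 12 gut epithelial markers.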

How the data were processed

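Single-colour arrays measured RNA of 3 MBELN and 3 PBS samples. The authors' deposited values, 1 per probe set and array, are taken as log2 intensities because none is below 0 and the highest is 19.9. How they were summarized or normalized, and on which genome build, is not given in these sources. The submitters' processing notes name Transcriptome Analysis Console 4.0, and the labels also name an Ion AmpliSeq panel, which these array files are not. Symbols came from the platform annotation, where 19572 of 22206 transcript probe sets had 1 symbol, 0 had several and 2634 had none, and all 50 transferase symbols were unchanged by Entrez identifier in RefSeq.

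The deposited log2 values were not normalized again. The 6640 control probe sets were left out, and the 22206 others were fitted with limma 3.58.1 (R 4.3.3, lmFit and eBayes, two-sided, 4 residual degrees of freedom), adjusted by the Benjamini-Hochberg method over all of them at a threshold of 0.05. Every adjusted p above is from limma. The fit was tested on simulated data with independent normal values of equal SD in both groups. That test does not cover arrays that stand apart or unequal spread, as seen here. The dim level used 1412 receptor probe sets. For a gene dim on all arrays of 1 group, the bound sets the other group's mean against, per array, the higher of the dim level and the gene's own value. Levels of different probe sets were not compared, and 6 arrays limit the precision.

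The genes and lists were chosen with earlier results of these data known. Array values were given for genes past the threshold, for the next 2 per family by p, and for those 4 log2 units apart on 1 array or within a group. Up to 4 genes by p were named from the partner, donor and mucin lists. Samples were grouped by their titles. Alternatives covered scaling, a dim filter, variance models, array weights, a replicate block, arrays left out, and the level of 4 hybridisation control probe sets, which is not a labelled batch. Replicate numbers were checked for pairing, and the correlations of same-numbered arrays' deviations from their group means were -0.0315, -0.0718 and -0.0557.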

Additional observations from a re-analysis of the deposited data

How the results depend on the processing

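Of 382 single values of 24 transferase genes over 16 alternative settings, 305 kept their side of the threshold and direction, 45 lost the call, 31 gained one and 1 reversed (B3galt1, -0.49 within the arrays of higher hybridisation control level). The choice among probe sets of a gene was not run, since 0 of the listed genes had several. With shares of all probe sets in brackets, the 12 lower genes became 21 within that level (9.21%) and 5 with a replicate block (1.77%), and were 15 with array weights (13%). The 0 higher genes became 1 with a filter on dim probe sets (3.1%), 5 with array weights (12.9%), 11 with PBS 2 and MBELN 2 both left out (15.1%), 3 within the higher (9.59%) and 13 within the lower control level (16.8%). The 5 of 50 higher with array weights are 10%, below the share of all probe sets. The median difference moved to -2.52 with the dim filter, which leaves 34 of the 50 genes. The 1 partner enzyme past the threshold became, in either direction, 4 with the dim filter (11.1%), 13 with array weights (25.9%), 18 with PBS 2 and MBELN 2 out (30.5%), 3 with the control level as a block (6.19%), 11 within the higher (18.8%) and 20 within the lower level (32.6%). The 10 donor genes became 16 with PBS 2 and MBELN 2 out (30.5%).

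Leaving out 1 array gave 3 to 13 lower and 0 to 3 higher transferase genes, 0 to 5 partner enzymes, 3 to 13 donor genes and 1 to 2 mucins. Of all probe sets, 1.46% to 7.32% were lower and 0.23% to 9.51% higher in these fits, and 1.7% to 16.8% passed in either direction. The upper ends for transferases, partners and donors came without MBELN 2, where the shares of all probe sets were highest. The median stayed between -0.26 and 0.10. With the replicate block, 0 partner enzymes, 2 donor genes and 1 mucin passed, against 2.05% of all probe sets in either direction. Galnt4, Gcnt3, Galnt3, Galnt10 and St3gal4 kept their calls with that block. Whether the numbers pair the samples stays unknown, since correlations of deviations from means of 3 unlike arrays cannot settle it. Quantile normalization ended the call of St3gal4, the control level as a block those of St3gal4 (adjusted p = 0.0807) and Galnt10 (0.0515), and a trended robust variance that of Fut8. The cause of these changes was not tested. The higher control level holds MBELN 1, MBELN 3 and PBS 2, and the lower level MBELN 2, PBS 1 and PBS 3. Within either level 1 group is thus a single array, assumed to vary like the other group, and counts of those fits are not given. Their groups also carried unlike tissue markers, heart muscle against colon in the higher level and neuronal against Paneth cell in the lower. The single values counted above include these fits, and the reversed value of B3galt1 is one without MBELN 2. Dim values limit fold changes to bounds, and recomputing the bounds without each array was added after seeing the data.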

Other observations

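A pair of partner enzymes differed widely between arrays without passing the threshold, and both were chosen after their values were seen. B4galnt2, which makes the Sda structure of gut glycans, had 5.64, 3.33 and 5.85 in MBELN 1, 2 and 3, against 18.64, 8.42 and 18.73 in PBS 1, 2 and 3. Gal3st2, a sulfotransferase that acts on galactose, had 3.35, 3.57 and 3.91 in MBELN 1, 2 and 3, against 15.59, 6.77 and 14.40 in PBS 1, 2 and 3. PBS 2 stood below the other PBS arrays in both genes.

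Other partner enzymes were high on MBELN 2, and these too were chosen after their values were seen. St8sia3, a sialyltransferase of brain, read 12.48 there and at most 3.70 on the other arrays. The sulfotransferase genes Chst1 and Chst2 read 12.77 and 9.01 on MBELN 2, and at most 3.74 and 3.41 elsewhere. A sugar donor gene, also chosen after its values were seen, was high on PBS 2 instead. This gene, Gne, encodes the entry enzyme of sialic acid synthesis and read 16.06 on PBS 2, and at most 11.15 on the other arrays.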
